A study of Zea mays with 18 samples.

Results

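Event 2 is one of 2 independent maize transformation events that express the Arabidopsis HD-Zip II protein variant ATHB17Δ113. It was compared with its control in ear inflorescence, the young ear taken at the V16 growth stage. The comparison was made over the 39351 gene identifiers, of 76612 in all, whose mean normalised count over the 6 libraries compared was at least 10. Membership rests on the mean over both groups, so a transcript under 10 in control can enter through event 2 alone. GRMZM2G023764, with a mean of 137 in event 2 and 0 in control, did so. Others, with their control means, include GRMZM2G483596 (0.47), GRMZM2G320731 (1.42), GRMZM2G148726 (2.68), GRMZM2G312539 (4.83), GRMZM2G126684 (4.91) and GRMZM2G078795 (9.44). For such transcripts a higher mean in event 2 follows from the filter. Transcripts such as GRMZM2G059304 and GRMZM5G823696, with event 2 means of 8.07 and 3.56, entered through control, and their lower means follow likewise. Each value is a read count multiplied by the scale factor of its library, called the normalised count here, and each identifier is called a transcript.

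RNA-seq libraries from the field-grown hybrid NN6306 fell into 6 groups of 3 biological replicates. Event 2 ear inflorescence, event 1 ear inflorescence and control ear inflorescence were sampled at V16, and event 2 ear, event 1 ear and control ear at R1 (silking). The plants were grown under standard agronomic practices. No stress treatment is described, and their exposure to heat or drought in the field is not given. Plants of both events carried the full-length ATHB17 coding sequence behind the rice actin promoter, which is active in most tissues, together with a CP4 EPSPS glyphosate tolerance gene behind the same promoter. Each event was selected for a single copy of the cassette at its own insertion site, so an effect of the transgene and an effect of the insertion site or line cannot be told apart within event 2. In maize the protein made from the transgene is truncated and has no repression domain. The control plants were labelled as non-transgenic. The study states that any insect protection or glyphosate tolerance traits in its field hybrids were shared by events and control. Whether the control plants carried such traits is not given. The level of the transgene itself was not analysed here.

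HD-Zip II proteins are plant transcription factors in which a homeodomain is followed by a leucine zipper, through which they form dimers on DNA. They repress their targets, and they are known for roles in shade response, auxin response and the shaping of meristems and carpels. The ear inflorescence carries the axillary meristems that give rise to spikelets and florets, so that its cells divide quickly and make much protein. Heat-shock proteins, which recur below, are chaperones that keep other proteins folded, and heat-shock factors are the transcription factors that switch on their genes.

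The 6 libraries compared held 31051363 to 52655576 reads assigned to transcripts, with reads counted on every transcript they matched. Markers of the ear inflorescence (23 transcripts, such as the meristem gene kn1 and the branching gene ra3) were all above 0 and summed to 33827, 45099 and 29823 normalised counts in event 2 and 26986, 30794 and 31152 in control. Event 2 replicate 2 stood apart. It was at 87.4 on the first principal component, which held 46.9% of the variance, whereas the other 5 libraries lay between -47.4 and 13.7. It lay more than 1 log2 unit above all the other 5 libraries for 158 transcripts and below them for 225, against 4 to 38 and 21 to 54 for each of the other libraries. It also held pollen transcripts: EXPB1 (GRMZM2G146551), a pollen cell wall protein, had 0, 332 and 0 normalised counts in event 2 and 0, 0 and 0 in control, and xyl1 (GRMZM2G170839) had 0, 127 and 0 in event 2 and 0, 0 and 0 in control. A sum over 6 pollen genes of the cell wall was 1209.5 in that library and 0 in the other 5. These pollen genes were named after their values were seen. The other members of the pollen or anther list did not set that library apart: ms32 (GRMZM2G163233), a regulator of anther development, had 1768, 1481 and 1728 in event 2 and 1848, 1759 and 1745 in control, and ms26 and ms8 were at or near 0 in both groups. In bulk tissue, more cells of a type and more RNA per cell cannot be told apart, and this holds for every class below.

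Few single transcripts were called. The threshold for a call was taken from the study. With limma on log2(normalised count + 1) and the call at a raw p of at most 0.0001, 13 transcripts rose (0.033% of members) and 5 fell (0.0127%), 18 in all (0.0457%), and 14 members had an adjusted p under 0.05 (0.0356%). Over all 76612 identifiers the same fit called 51 (0.0666%), 23 higher and 28 lower, so the surplus of higher calls held among members only. Below a raw p of 0.05, 723 members were higher (1.84%) and 604 lower (1.53%). The median log2 difference of all members was -0.02, and 47.8% were above 0. The 3 event 2 values lay wholly above the 3 control values for 3102 transcripts (7.88%) and wholly below them for 5093 (12.9%). With the reads recovered from these values, edgeR's quasi-likelihood test called 146 members higher and 29 lower and DESeq2 31 higher and 15 lower. Of the 157 members that edgeR called and limma did not, 90 had overlapping groups and 67 did not. Of the 28 that DESeq2 called and limma did not, 4 had overlapping groups and 24 did not. Without event 2 replicate 2, limma called 10 members higher and 2 lower, all of them among the 18. The shares with no overlap are the background for the class counts below.

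The transcripts that rose in event 2 were at or near 0, or several-fold lower, in control and in event 1, and none has a gene name in RefSeq. GRMZM2G023764 had 141, 100.6 and 169 normalised counts in event 2, 0, 0 and 0 in event 1 and 0, 0 and 0 in control. Every event 2 library was high and no read was counted in any event 1 or control library of either tissue. Set against a floor of 3 reads per control library, it was at least 57.3-fold higher in event 2 (limma adjusted p = 3.53e-07). GRMZM2G387589 was the most abundant of them, at 1711, 1418 and 1974 in event 2, 163, 66.3 and 84.6 in event 1 and 122, 108 and 97.0 in control. Its event 2 values did not overlap those of either other group, with a log2 fold change of 3.94 (SE 0.34, limma adjusted p = 1.90e-05). GRMZM2G320731 had 127, 103 and 147 in event 2, 2.08, 2.84 and 1.21 in event 1 and 1.40, 2.87 and 0 in control, again high in all 3 event 2 libraries and close to 0 elsewhere (log2 fold change 5.90, SE 0.56, limma adjusted p = 5.62e-05).

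GRMZM2G126684 had 143, 109 and 182 normalised counts in event 2 and 3.51, 6.45 and 4.77 in control, a log2 fold change of 4.62 (SE 0.60). GRMZM2G483596 had 26.6, 19.7 and 28.3 in event 2 and 0.70, 0.72 and 0 in control, at least 10.4-fold higher against the floor of 3 reads per library. For both, every event 2 library exceeded every control library many times over. A second set had a clear level in control. GRMZM2G151585 had 412, 315 and 449.5 in event 2 and 55.4, 56.6 and 40.5 in control (log2 fold change 2.92), GRMZM2G179666 had 470.3, 371 and 552 in event 2 and 77.8, 65.9 and 78.7 in control (2.62), and GRMZM2G005006 had 491, 410.5 and 538 in event 2 and 82.02, 76.6 and 61.2 in control (2.70). In each of the 3, event 2 replicate 2 was the lowest event 2 library and still well above all controls. GRMZM2G078114 (log2 fold change 2.25) and GRMZM2G078795 (3.22) followed the same pattern.

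These calls rested on different numbers of libraries. The 9 transcripts just given other than GRMZM2G078795 stayed called when any of the 6 libraries was left out, whereas GRMZM2G078795 was not called without control replicate 3 (log2 fold change 2.99). GRMZM2G028921, the only called transcript of this set with a RefSeq gene, had 639, 449 and 668 normalised counts in event 2 and 199, 163 and 134 in control (log2 fold change 1.82) but was not called in any of the 6 fits that left out a library (1.67 to 2.00). GRMZM2G148726, at 30.3, 15.03 and 30.1 in event 2 and 3.51, 2.15 and 2.39 in control (2.78), was likewise called in none of them (2.62 or more in each). GRMZM2G312539, at 22.1, 48.6 and 23.01 in event 2 and 6.31, 5.01 and 3.18 in control (2.41), was highest in event 2 replicate 2 and was not called without that library, without control replicate 2 or without control replicate 3 (2.05 to 2.60). AC199186.2, at 46.9, 93.7 and 43.1 in event 2 and 18.2, 12.2 and 13.5 in control, and GRMZM2G102657, at 370.2, 377 and 258 in event 2 and 181, 180.5 and 183 in control, completed the 15 higher transcripts with the smallest p among those whose groups did not overlap, but neither was called (limma adjusted p = 0.164 and 0.208).

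**Figure D1:**
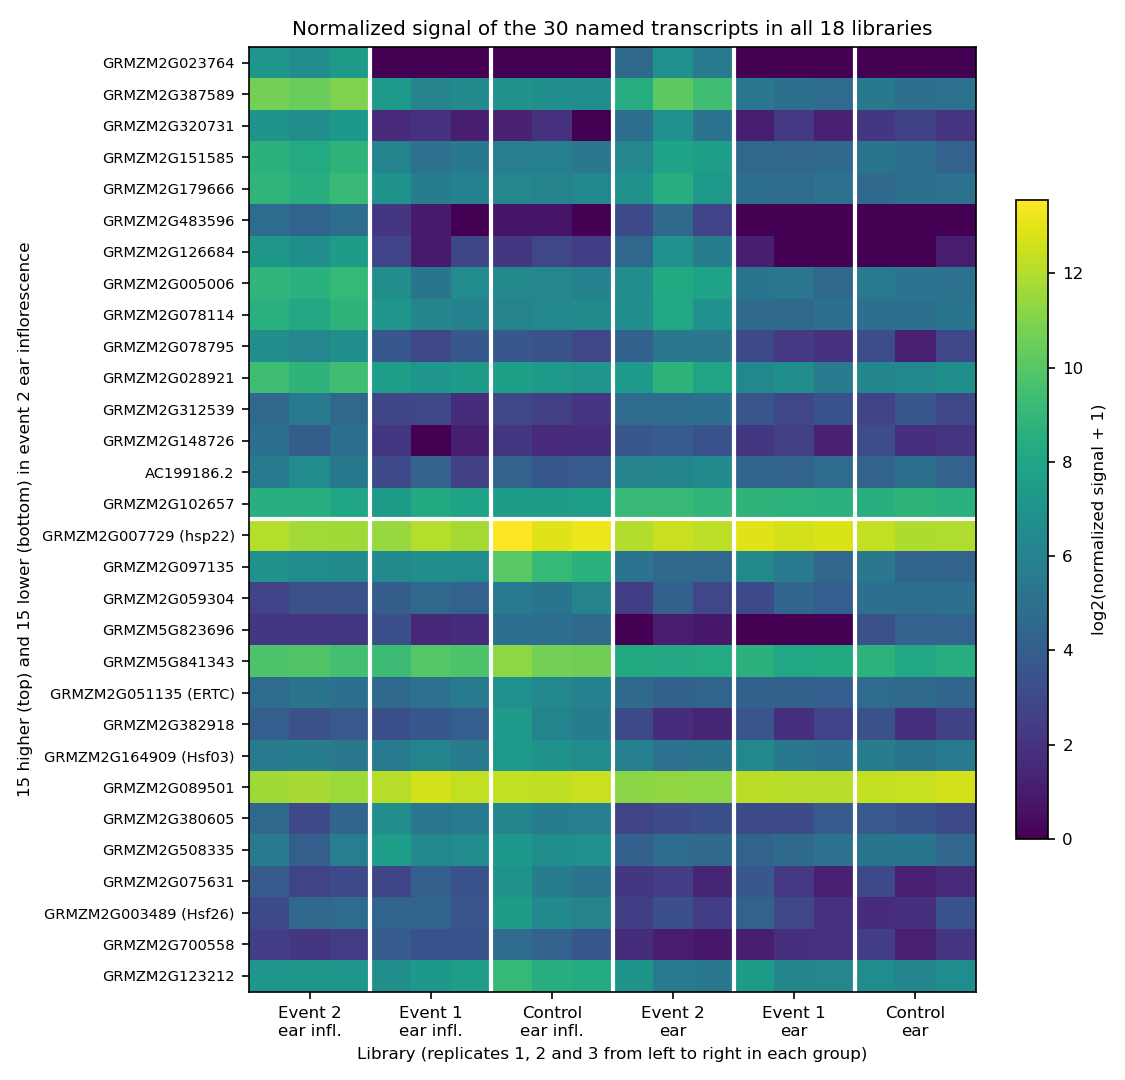
Levels of the 15 higher (top) and 15 lower (bottom) transcripts with the smallest p, as log2(normalised count + 1), in all 18 libraries; columns are the 3 replicates of each group and colour runs from 0 (dark) to above 12 (yellow). The transcripts of the top block are brighter in event 2 than in control of the same tissue, several of them, such as GRMZM2G387589 and GRMZM2G028921, with a mid-scale level in control, while in the bottom block most transcripts are brightest in control ear inflorescence, with event 1 near event 2.

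The same transcripts were higher in silking ears of event 2, which are other samples than those that chose them. All 15 were higher there with no overlap between event 2 and control ear, where 3.48% of members were, and 11 of the 15 were called, where 16 members in all were (0.0407%). These calls rest on a spread estimated over all 6 groups: with only event 2 ear and control ear fitted, 2 members were called, 0 of them higher, so that none of the 11 was called. GRMZM2G023764 had 24.98, 114 and 48.0 normalised counts in event 2 ear and 0, 0 and 0 in control ear, at least 15.7-fold higher. GRMZM2G387589 had 343, 1120.5 and 673 in event 2 ear and 43.3, 30.4 and 32.7 in control ear, a log2 fold change of 4.14. In both, the second event 2 ear was the highest and the first the lowest, and none overlapped control. Leaving out one library at a time, 7 of the 11 stayed called in ear. GRMZM2G320731 was not called in ear without event 2 ear replicate 2 or control ear replicate 1 or 3 (log2 fold change 2.74 to 3.72 over the 6 fits). GRMZM2G005006 (2.00 to 2.80) and GRMZM2G078795 (1.98 to 2.98) were not called without event 2 ear replicate 2 or 3 or control ear replicate 2 or 3, and GRMZM2G028921 was called only without event 2 ear replicate 1 (1.16 to 1.92).

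In event 1 ear inflorescence none of the 15 was higher than control with no overlap, where 1.32% of members were, and 14 of the 15 were called in event 2 against event 1, a comparison in which 19 members in all were called (0.0483%). The 15 were chosen on the same 3 event 2 libraries, so the count of 14 is a description and not independent support, and with only event 2 and event 1 ear inflorescence fitted 2 members were called, GRMZM2G023764 and GRMZM2G320731. The exception was GRMZM2G102657, with 370.2, 377 and 258 in event 2, 169, 297 and 234 in event 1 and 181, 180.5 and 183 in control. Both events were set against the same 3 control libraries.

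Most of these transcripts kept a steadier ratio to GRMZM2G387589 than their own excess across the event 2 libraries. Ratios among the other transcripts were not computed. Taken over the control mean of its tissue, the excess of each of 10 transcripts varied 4.97- to 8.31-fold among the 6 event 2 libraries, but its ratio to the excess of GRMZM2G387589 varied only 1.40- to 2.64-fold. GRMZM2G023764 was closest to it, at 0.0753 to 0.105 of its excess in every library. The ratio varied 3.04-fold for GRMZM2G148726, whose excess varied 5.60-fold. It varied more than the excess itself (2.54- to 2.78-fold) for GRMZM2G312539 (6.06-fold), AC199186.2 (9.11-fold) and GRMZM2G102657 (13.4-fold). These ratios are a description over 6 libraries, of which the 3 of ear inflorescence also served to choose the transcripts. Reads were counted on every transcript they matched, so transcripts of related sequence share reads. Whether shared reads have a part in these ratios was not tested. Only 2 of the 15 matched a RefSeq gene, so their positions were not compared.

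**Figure D2:**
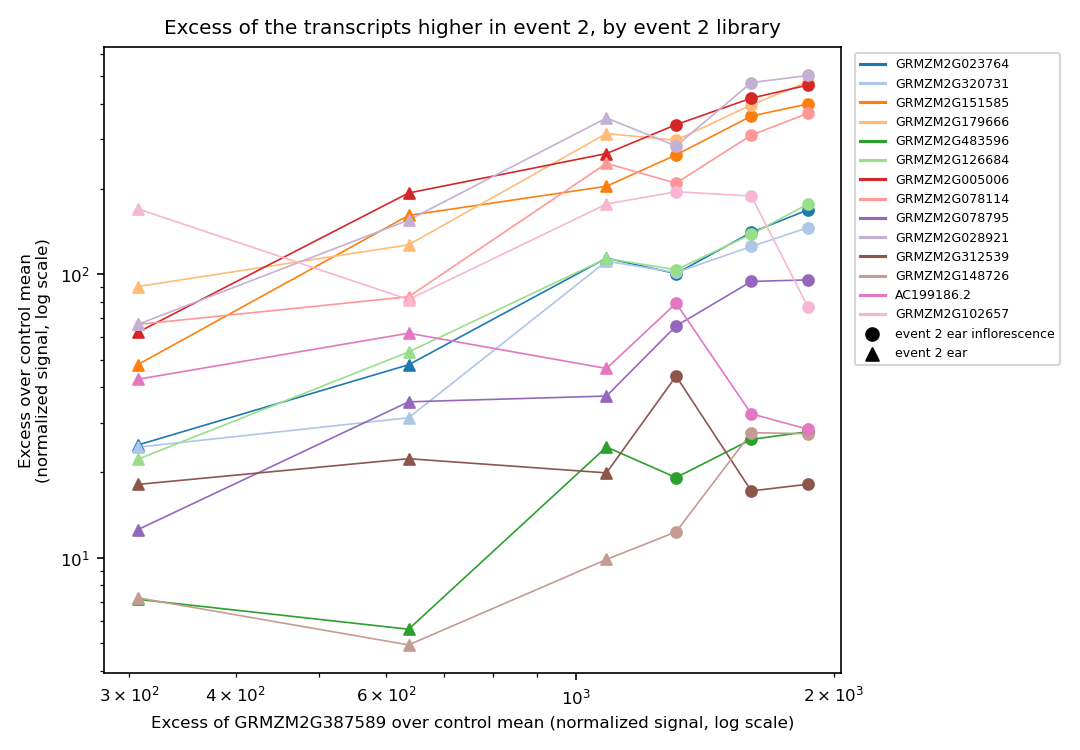
Excess of each higher transcript over the control mean of its tissue (normalised counts, log axis) against the excess of GRMZM2G387589 (log axis), 1 point per event 2 library, circles for ear inflorescence and triangles for ear. For 10 transcripts the ratio to the excess of GRMZM2G387589 stayed within 1.40- to 2.64-fold, while for GRMZM2G312539, AC199186.2 and GRMZM2G102657 it varied more.

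Among the transcripts that fell, hsp22 (GRMZM2G007729), a small heat-shock protein of mitochondria, was the most abundant. It had 4253, 3280.4 and 3166 normalised counts in event 2, 2856, 4171 and 3336 in event 1 and 12058, 7734 and 9601 in control. All 3 event 2 libraries lay below all controls, with a log2 fold change of -1.45 (SE 0.20, limma adjusted p = 0.00531), and it stayed called with any of the 6 libraries left out (-1.61 to -1.29). It was not called when only the 6 libraries compared were fitted (-1.45). In ear hsp22 had 4155, 5606 and 4776 in event 2 and 5066, 3761 and 3997 in control (log2 fold change 0.18), and those groups overlapped. The difference between the tissues was 1.63 (SE 0.28), the only one called at the raw threshold among all members (0.00254%), although its limma adjusted p was 0.638. That call was lost in 6 of 12 fits that left out 1 library, those without control ear replicate 2 or 3, control ear inflorescence replicate 1, event 2 ear replicate 2 or event 2 ear inflorescence replicate 2 or 3 (1.47 to 1.79 over the 12 fits).

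GRMZM2G097135 is annotated in the study with a BAG domain, which is found in partners of heat-shock chaperones. It had 118, 97.1 and 89.1 normalised counts in event 2, 88.7, 101.4 and 90.7 in event 1 and 1079.6, 538 and 401 in control. It fell by 2.60 on the log2 scale (SE 0.40, limma adjusted p = 0.0176), and control replicate 1 was its highest library. The call was lost without control replicate 1 or 2 and without event 2 replicate 2 or 3 (-2.91 to -2.20). GRMZM2G059304 had 5.51, 9.25 and 9.44 in event 2, 15.2, 21.8 and 18.1 in event 1 and 47.0, 38.0 and 66.0 in control, a log2 fold change of -2.50, and was not called without control replicate 1, control replicate 3 or event 2 replicate 1 (-2.68 to -2.27). GRMZM5G823696 had 3.67, 3.47 and 3.54 in event 2 and 30.1, 28.6 and 24.6 in control (-2.66), and it fell in ear as well, with 0, 1.12 and 0.80 in event 2 ear and 9.37, 18.5 and 17.9 in control ear (-3.32). GRMZM5G841343 had 871, 948 and 721 in event 2 and 2482, 1682 and 1576 in control (-1.15). Neither GRMZM5G823696 (-2.74 to -2.60) nor GRMZM5G841343 (-1.28 to -0.95) was called when any one of the 6 libraries was left out.

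The other 10 of the 15 lower transcripts with the smallest p were not called. Among them were 2 heat-shock factor genes. Hsf03 (GRMZM2G164909) had 46.9, 50.9 and 42.5 normalised counts in event 2 and 155, 121 and 93.0 in control (log2 fold change -1.35, limma adjusted p = 0.208), and Hsf26 (GRMZM2G003489) had 7.35, 22.0 and 25.96 in event 2 and 178, 87.4 and 65.2 in control (-2.55, limma adjusted p = 0.39). Both were called by edgeR and by DESeq2 on the recovered reads. ERTC (GRMZM2G051135) had 25.7, 35.8 and 30.1 in event 2 and 109, 79.5 and 62.0 in control, and GRMZM2G123212 had 141, 143 and 137 in event 2 and 541, 351 and 319 in control. For all 4, control replicate 1 was the highest library. The remaining ones, GRMZM2G382918, GRMZM2G380605, GRMZM2G508335, GRMZM2G075631, GRMZM2G700558 and GRMZM2G089501, had log2 fold changes of -2.72 to -0.69. GRMZM2G089501 was among the most abundant, at 3141, 3489 and 2998 in event 2 and 5014, 4919 and 5623 in control, and it fell in ear, at 2393, 2495 and 2410.2 in event 2 ear and 5167, 5509 and 6392 in control ear (-1.22).

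The lower transcripts differed from the higher ones in the other groups. In event 1, 11 of the 15 lay below control with no overlap, where 558 members (1.42%) did. The 2 events share these control libraries, so the 2 sets of values are not independent. In ear, 3 of the 15 were lower with no overlap (GRMZM2G059304, GRMZM5G823696 and GRMZM2G089501), where 4.96% of members were. A list of 7 transcripts for both events, chosen earlier on these same samples and so not independent of them, holds hsp22, GRMZM2G097135, GRMZM5G823696 and GRMZM5G841343, which fell, and ERTC, which was not called. GRMZM5G845499 had 177, 191 and 156 normalised counts in event 2, 182, 171 and 172 in event 1 and 92.5, 104 and 77.9 in control (log2 fold change 0.93, limma adjusted p = 0.308). GRMZM2G008611 had 1172, 859 and 1023 in event 2, 981, 925 and 892 in event 1 and 1359, 1438 and 1570.2 in control (-0.52, limma adjusted p = 0.485). Neither overlapped control and neither was called.

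Gene classes were then described by name, with 861 transcripts in 51 classes. A class was read by its count and its median, beside the same values over all members, and no set was tested. Large chaperones, the HSP70, HSP90, HSP101 and chaperonin proteins that fold others with the energy of ATP, and their co-chaperones lay mostly below control. Of 13 measured, 10 lay below control with no overlap (76.9%, beside 12.9% of members), 11 had a difference below 0, and 6 had a raw p under 0.05 downward, but none was called by limma, edgeR or DESeq2. The median log2 difference was -0.36, with library medians of -0.34, -0.22 and -0.34 in event 2 and 0.07, -0.06 and -0.01 in control. With any one library left out the median was -0.41 to -0.29. In event 1 the median was -0.33 against the same controls, and in ear it was 0.02 for event 2, with no member below control without overlap.

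The disaggregase hsp101 (GRMZM2G360681), which pulls aggregated proteins apart, had 1639.7, 1919 and 1691 normalised counts in event 2 and 3443, 2426 and 2864 in control (log2 fold change -0.72, SE 0.20). HSP90-1 (GRMZM2G024668), a chaperone of signalling proteins, had 17816, 21522 and 16934 in event 2 and 35678, 27691 and 25775 in control (-0.66, SE 0.25). Both had control replicate 1 as the highest library and no overlap. The mitochondrial chaperonins lay below control as well. CPN60I had a log2 difference of -0.51 for GRMZM2G458208 and -0.36 for GRMZM2G111477, and CPN60II (GRMZM2G416120) one of -0.39, each with no overlap. The HSP70 genes hsp1 (GRMZM5G802801, -0.43) and Hsp70 (GRMZM2G310431, -0.26) and the BiP chaperones of the endoplasmic reticulum, bip2 (GRMZM2G415007, -0.21) and b-70 (GRMZM2G114793, -0.19), lay below control with no overlap as well. hsp82 (GRMZM5G833699) had a log2 difference of -0.48. The 2 members above 0, cdj2 (GRMZM2G364069, 0.21) and hsp70-4 (GRMZM2G340251, 0.27), overlapped control and changed sign under quantile normalisation (-0.02 and -0.01).

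Small heat-shock proteins did not move as one. Apart from hsp22, the 4 measured members lay at log2 differences of 0.17 to 0.33 and overlapped control. hsp18f (GRMZM2G083810) had 10096, 14115 and 9213 normalised counts in event 2 and 8245, 12500.2 and 7875 in control, abundant like hsp22 but with overlapping groups. The class median was 0.18 and moved with every library but event 2 replicate 1, between -0.0026 without event 2 replicate 2 and 0.35 without control replicate 2. Without event 2 replicate 2, 2 of its members, hsp18a (GRMZM2G404249) and hsp18c (GRMZM2G034157), changed sign (-0.0026 and -0.01). Of 10 heat-shock factors, 5 were above 0 and the median was 0.03 (-0.10 to 0.12 with 1 library left out). Hsf03 and Hsf26 lay below control and HSF29 (GRMZM2G179802) above it, at 431, 558 and 379 in event 2 and 313, 346 and 367 in control (0.40), each with no overlap. No stress treatment is described for these field plants, and their exposure to heat is not given. Control replicate 1 was the highest of the 6 libraries for hsp22, hsp101, HSP90-1, Hsf03 and Hsf26. The part of that library in the class was not tested beyond the fits without it, in which the chaperone median was -0.29.

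**Figure D3:**
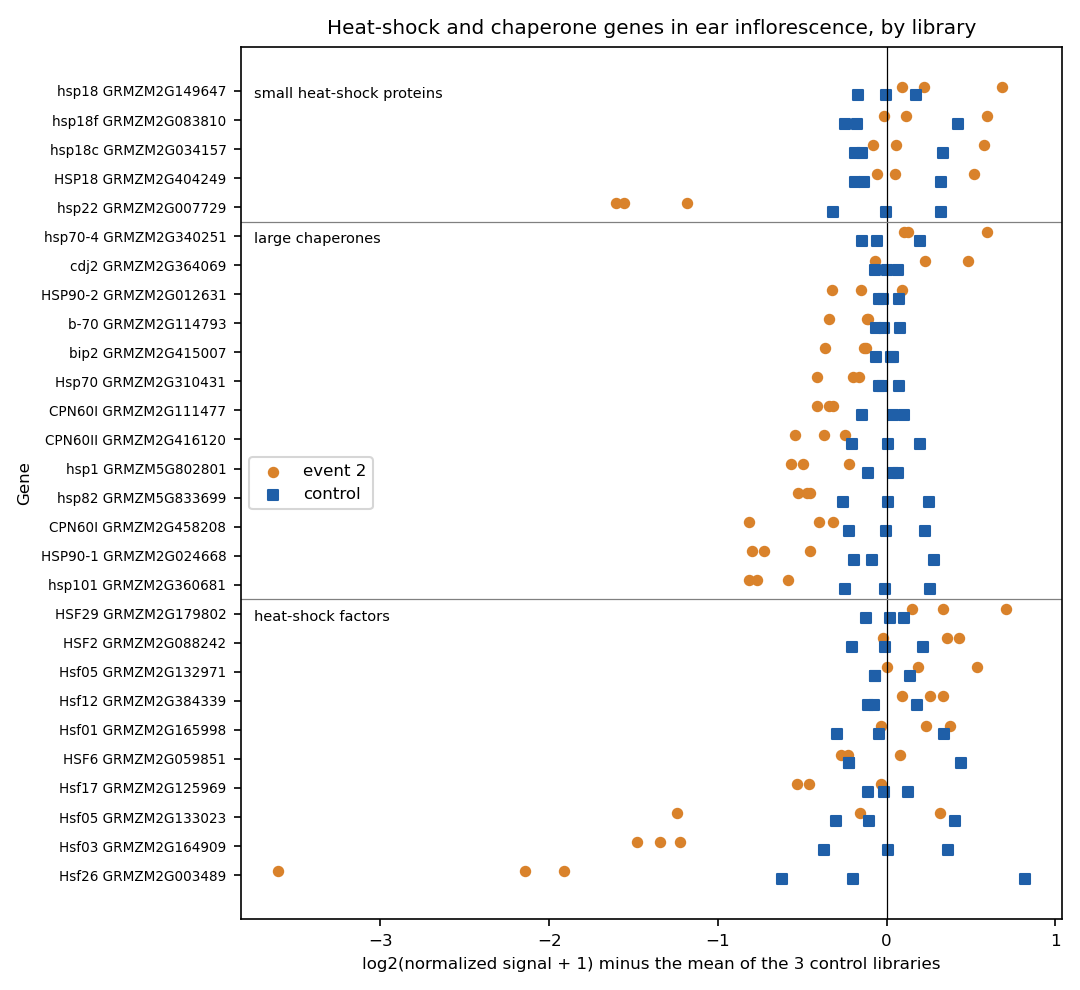
Heat-shock and chaperone genes in ear inflorescence: log2(normalised count + 1) minus the mean of the 3 control libraries, 1 point per library, event 2 as circles and control as squares. Of the 13 large chaperones 10 have all circles left of all squares, of the 5 small heat-shock proteins only hsp22 does, and of the 10 heat-shock factors Hsf03 and Hsf26 do.

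Protein synthesis genes lay the other way. All 37 ribosomal protein genes had a difference above 0 in event 2, where 47.8% of members did, and 19 lay above control with no overlap (51.4%, beside 7.88% of members). The differences were small, with a median of 0.27, none at a raw limma p under 0.05 and none called by edgeR or DESeq2. Library medians were 0.25, 0.47 and 0.09 in event 2 and -0.07, 0.01 and 0.04 in control, so event 2 replicate 2 was the farthest. Without it the median was 0.17, with 36 of 37 above 0 and again 19 with no overlap, when 10.5% of members had none. Under quantile normalisation the median was 0.14, and after subtracting the median of members of like level it was 0.16. When members were cut into 10 equal groups by level, the group with the highest levels had a median of 0.12 and the lowest one of -0.08. The gene rps10 (GRMZM2G095511) had 120.3, 122.6 and 103 normalised counts in event 2 and 96.0, 85.2 and 89.8 in control (log2 difference 0.34). In ear the sign was the opposite, with a median of -0.23, none of 37 above 0 (48.8% of members were) and 15 below control ear with no overlap.

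Of 12 translation factors, 11 were above 0 and 7 were above control with no overlap, with a median of 0.22, which was 0.15 without event 2 replicate 2 and -0.01 under quantile normalisation, so that its direction depended on the scaling. tif1 (GRMZM5G835323) had 8214, 10331 and 8819.7 normalised counts in event 2 and 7917, 5946 and 7459.8 in control, whereas eIF3A (GRMZM2G093050), at 8920.5, 8272 and 10399.5 in event 2 and 12834, 10858 and 9643 in control, overlapped and was lower in event 2 on average. All 8 histone genes were above 0, 5 of them with no overlap, with a median of 0.50 that was 0.33 without event 2 replicate 2 and 0.26 under quantile normalisation. The histone H4 gene H4C13 (GRMZM2G084195) had 17722, 23949 and 15039 in event 2 and 12508, 11723 and 13003 in control, and the linker histone H1 (GRMZM2G003002) had 15193, 18697 and 12251 in event 2 and 10255, 9822.1 and 12464 in control. Event 2 replicate 2 was the highest library for both, and H1 overlapped control. In ear none of the 8 histones was above 0 (median -0.17). In these 3 classes no member was called by limma, edgeR or DESeq2, and 1 member, a histone, had a raw limma p under 0.05.

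Genes of light capture also had differences above 0. All 11 light harvesting and photosystem genes did, with a median of 0.56, 3 at a raw p under 0.05 and 4 with no overlap. Library medians were 0.50, 0.57 and 0.51 in event 2 and -0.13, -0.32 and 0.45 in control, so that event 2 libraries were alike and control replicate 3 lay near them. Without control replicate 2 the median was 0.36, and without control replicate 3 it was 0.78. cab-m1 (GRMZM2G351977), a chlorophyll a/b binding protein, had 606, 923 and 573 normalised counts in event 2, 195, 580.0 and 413 in event 1 and 351, 331 and 523 in control (log2 difference 0.80). psad1 (GRMZM2G024150), a photosystem I subunit, had 217, 215 and 176 in event 2 and 104, 112 and 196 in control, with overlap through control replicate 3. lhcb3 (GRMZM2G155216), named after its values were seen, had 7028, 6254 and 5950.4 in event 2 and 3801, 3249.7 and 5878 in control. Against event 1 all 11 were above 0 as well (median 0.54, with 48.4% of members above 0), and in ear only 2 of 11 were (median -0.08). Event 1 replicate 1 was low: lhcb3 had 2064, 6668 and 5968 in event 1, where replicates 2 and 3 lay among the event 2 values. For lhcb5 (GRMZM2G149428), also named after its values were seen, event 1 had 1263, 2007 and 2200, all below event 2. The part of event 1 replicate 1 in this median was not tested.

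The 5 ferredoxins, electron carriers of plastids, were all above 0 (median 0.65), but none separated from control. fdx5 (GRMZM2G122327) had 130.4, 70.5 and 128 normalised counts in event 2 and 28.7, 54.4 and 107 in control. Carbon fixation genes had a median of 0.13, or 0.05 without control replicate 2, although the Rubisco small subunit gene rbcS (GRMZM2G113033) had 409, 265 and 322 in event 2 and 154, 148 and 332 in control. A list of 18 green leaf or husk markers, which shares members with these classes, summed to 19154, 19440 and 18576 in event 2 and 13424, 12224 and 17466 in control, with no overlap. The abundant lhcb3 was the largest part of this sum. Of the 18 markers, 4 lay above control with no overlap, and mdh6 (GRMZM2G129513, -0.20) and pdk1 (GRMZM2G306345, -0.18) had differences below 0. A list of 6 transcripts of lignified tissue, matched by 5 names, summed to 11347, 12512 and 9366 in event 2 and 7139, 8040 and 10224 in control, with overlap. The name cesa11 entered as both GRMZM2G037413 and GRMZM2G055795, which had nearly the same counts in each library. Whether the share of green or lignified tissue in the samples has a part in the class medians was not tested.

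**Figure D4:**
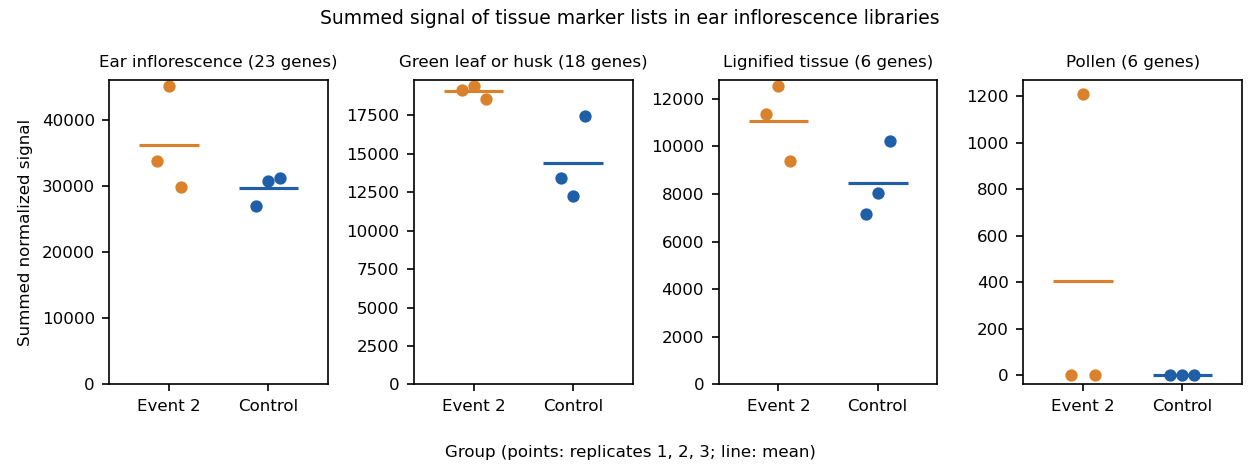
Summed normalised counts of 4 marker lists in ear inflorescence, 1 point per library with the group mean as a line, event 2 left of control. Green leaf or husk markers are at 18576 or more in event 2 and at 17466 or less in control, and the 6 pollen genes, listed after their values were seen, appear only in event 2 replicate 2, at 1209.5.

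Of 15 expansins, proteins that loosen the cell wall, 14 were above 0 and 5 had a raw p under 0.05, with a median of 0.53 (0.41 without event 2 replicate 2, when 1 had such a p). Yet only 2 of the 15 separated from control, and the class holds pollen expansins such as EXPB1 that were read in event 2 replicate 2 alone. expB8 (GRMZM2G013002) had 5642, 6554 and 5222 normalised counts in event 2 and 3374, 3572 and 5178 in control, and EXPA5 (GRMZM2G361064) had 504, 412 and 373 in event 2 and 205, 232 and 419 in control, with control replicate 3 among the event 2 values. The secreted BURP-domain proteins were all above 0 (5 of 5, median 0.64), but without event 2 replicate 2 the median was 0.35, and BURP2 (GRMZM2G113229) was high in that library alone (72.6, 446 and 80.8 in event 2, 80.6, 65.9 and 64.4 in control). Glutathione S-transferases, which detoxify by conjugation, had 20 of 23 above 0 and 7 with no overlap (30.4%), a median of 0.33 and one of 0.32 without event 2 replicate 2. Aquaporins had 23 of 26 above 0 (median 0.31) but 1 with no overlap. Lignin genes had a median of 0.33, or 0.16 without control replicate 2. Cystatins, inhibitors of cysteine proteases, had 3 of 6 members above control with no overlap (50.0%) and a median of 0.28, which was 0.17 without event 2 replicate 2.

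Benzoxazinoids are indole-derived defence compounds of maize. Of 10 genes of their synthesis, 9 were above 0 and 2 separated from control, with a median of 0.36 that was 0.20 without control replicate 1 and 0.57 without control replicate 3. BX3 (GRMZM2G167549), a cytochrome P450 of the pathway, had 13162, 14073 and 13764 normalised counts in event 2 and 9060.0, 9654 and 12638 in control, with no overlap but a log2 difference of only 0.40. Igl (GRMZM2G046163), which makes free indole, had 17.4, 38.2 and 29.5 in event 2, 7.62, 0.95 and 10.9 in event 1 and 4.91, 3.58 and 0 in control (log2 fold change 3.22, SE 0.80, limma adjusted p = 0.434), low in every group and called by edgeR but not by limma or DESeq2.

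The myosin, kinesin-related, Mediator, auxin response factor and chromatin classes had medians below 0. All 7 myosins, which move along actin, were below 0 in event 2, 5 with no overlap (71.4%), with a median of -0.49. Library medians were -0.46, -0.73 and -0.27 in event 2 and 0.18, 0.07 and -0.19 in control, so that event 2 replicate 2 was lowest and control replicate 3 nearest to event 2. Without event 2 replicate 2 the median was -0.35. Myosin-3 (GRMZM2G139583) had 802, 676 and 944 normalised counts in event 2 and 1204, 1181 and 999 in control, and the myosin gene GRMZM2G113319 had 209, 104 and 215 in event 2 and 327, 292 and 243 in control. In ear all 7 were above 0 (median 0.27), with none separated from control ear. All 7 kinesin-related genes, motors on microtubules, were below 0 too, 4 with no overlap, with a median of -0.23 (-0.15 without event 2 replicate 2). krp13 (GRMZM2G034828) was at 3571, 2909 and 3836 in event 2 and 4456, 4507 and 3891 in control. Genes of the filaments these motors run on lay on the other side of 0. All 13 actin and profilin genes were above 0 in event 2, 5 with no overlap (38.5%, median 0.18), although the profilin gene GRMZM5G876285, at 26.6, 278 and 13.6 in event 2 and 7.71, 7.88 and 12.7 in control, was far the highest in event 2 replicate 2, and 11 of 13 tubulins were (median 0.26, 0.40 without event 2 replicate 3 and 0.06 under quantile normalisation).

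Of 9 Mediator subunits, which link transcription factors to RNA polymerase II, 5 lay below control with no overlap (55.6%), and the median was -0.24 and -0.25 without event 2 replicate 2. Med13 (GRMZM2G053588) had 126, 87.9 and 153 normalised counts in event 2 and 210.3, 165 and 161 in control (log2 difference -0.57). The second Med13 gene (GRMZM2G153792) had 1622, 1611 and 1867 in event 2 and 2247, 2061 and 1952 in control. Auxin response factors had 14 of 16 below 0 and 8 with no overlap (50.0%), with a small median of -0.16 (-0.10 without event 2 replicate 2). ARF3 (GRMZM2G078274), a factor of flower and ovary patterning, had 9447, 9276 and 9236 in event 2 and 11036, 11284 and 10087 in control. Chromatin and small RNA genes had 35 of 42 below 0, a median of -0.21 (-0.13 without event 2 replicate 2) and 8 with no overlap (19.0%, closer to the 12.9% of all members). mez3 (GRMZM2G043484), a Polycomb methyltransferase gene, had 244, 249 and 319.7 in event 2 and 449, 366 and 351 in control. In ear the medians of the Mediator, auxin response factor and chromatin classes were 0.15, 0.08 and 0.04. In the myosin, kinesin-related, Mediator, auxin response factor and chromatin classes no member was called by limma, edgeR or DESeq2, and 2 members in all, 1 myosin and 1 Mediator subunit, had a raw limma p under 0.05.

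The regulators that shape the ear had small medians as classes. Homeobox and KNOX genes had 32 of 39 above 0, with a median of 0.22 that was 0.08 without event 2 replicate 2, and 4 with no overlap upward. HB53 (GRMZM2G044752) was at 479, 453 and 669.5 normalised counts in event 2, 335, 445 and 454 in event 1 and 328, 273 and 354 in control (log2 fold change 0.73, limma adjusted p = 0.368), and was called by DESeq2 but not by limma or edgeR. knox8 (GRMZM2G135447) had 553, 912 and 633 in event 2 and 533, 532 and 487 in control, highest in event 2 replicate 2. The medians of SBP-box genes (24, 0.18), MADS-box genes (29, 0.09), YABBY and TCP genes (15, 0.13), WOX genes (11, 0.05) and meristem size and branching genes (10, 0.10) came with 0 to 4 members separated upward in each, and none of these 5 medians exceeded 0.30 in any fit that left out 1 library. OVATE family genes, growth repressors, had a median of 0.38 in event 2 that was 0.17 without event 2 replicate 2 and 0.24 without control replicate 1. rel2 (GRMZM2G042992), a corepressor of ear and tassel branching, was at 5503, 5023 and 5523 in event 2 and 6571, 6177 and 5975 in control, with no overlap and a log2 difference of -0.22.

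Hormone classes had medians of 0.04 to 0.23, apart from the auxin response factors above. The class of Aux/IAA genes, the repressors of the auxin response, had 16 of 18 above 0 (median 0.18, or 0.11 without control replicate 2 and 0.27 without event 2 replicate 3) and 4 with no overlap. Its name pattern also took in the auxin import carrier aux1 (GRMZM2G129413, 0.47), which is not such a repressor and is among the 4. The class was not described without it. Auxin transport and synthesis genes were all above 0 (11 of 11, median 0.23), but the median was 0.06 without event 2 replicate 2, and only 1 separated from control, the auxin efflux carrier PIN1a (GRMZM2G098643), at 1542, 2346 and 1573 normalised counts in event 2 and 1441, 1514 and 1430.3 in control. Cytokinin genes (31) had a median of 0.04, or -0.15 without event 2 replicate 1, and abscisic acid genes (16) one of 0.17. Starch genes (18) had a median of -0.15, which was -0.06 without control replicate 1 and -0.03 without event 2 replicate 2. Cellulose synthases (17, -0.08), autophagy genes (15, -0.01) and endoplasmic reticulum folding genes (21, -0.05) were near the median of all members.

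Over the 51 classes, 42 had a median above that of all members, 18 were above 0.2 and 5 were below -0.2. Without event 2 replicate 2 these counts were 12 above 0.2 and 3 below -0.2. Of the 18 classes, 14 had their highest event 2 library in replicate 2, and 4 of the 5 classes below -0.2 had their lowest there. All 3 event 2 libraries lay above the control mean in 24 classes. One class, the small heat-shock proteins, held a transcript that limma called, hsp22, which edgeR and DESeq2 called too. Beyond it, edgeR called 3 expansins, 2 heat-shock factors, 2 actin or profilin genes, 2 BURP-domain genes and 1 gene each of the sucrose, starch and benzoxazinoid classes. DESeq2 called 2 heat-shock factors, 1 expansin, 1 actin or profilin gene and 1 homeobox gene.

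**Figure D5:**
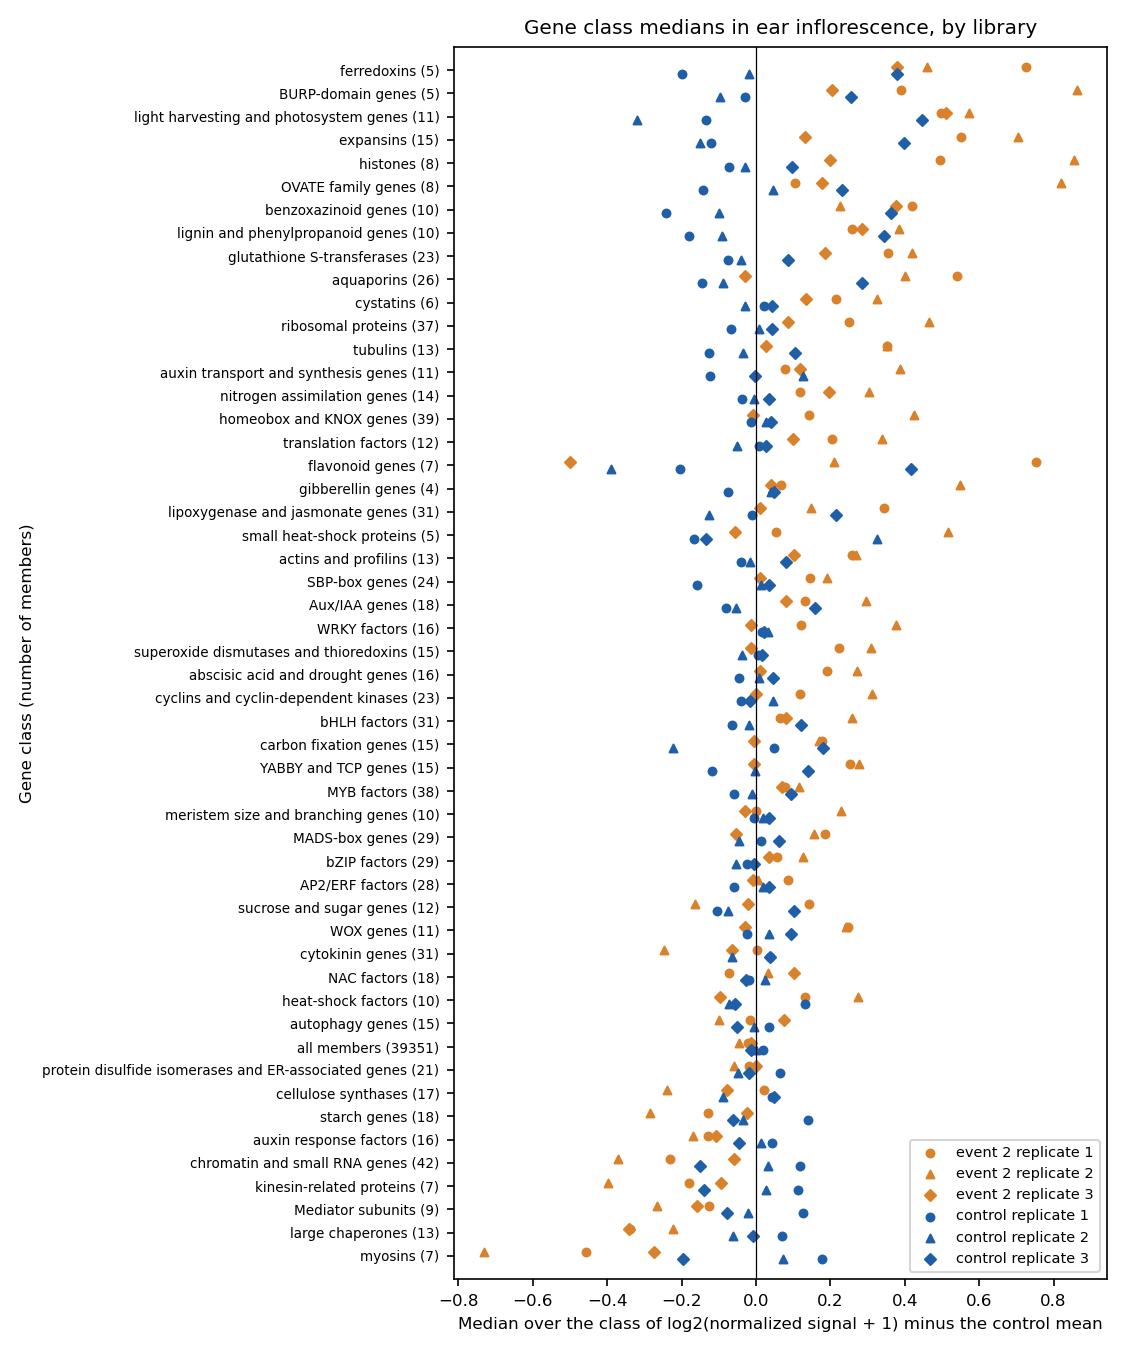
Median of each gene class in each ear inflorescence library, as log2(normalised count + 1) minus the control mean, with the number of members after the class name; orange marks are event 2, blue marks control, and the shapes are the 3 replicates. Event 2 replicate 2 (orange triangles) is farthest from 0 in many classes, while for light harvesting genes the 3 event 2 libraries sit together at 0.50 to 0.57 and for large chaperones at -0.34 to -0.22.

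A last description set event 2 against the course of ear development, with lists chosen in event 1 libraries, which take no part in the values. The 200 transcripts most raised in event 1 ear over event 1 ear inflorescence had a median log2 difference of 0.27 between event 2 and control ear inflorescence, with 181 above 0 and 39 above control with no overlap, where 7.88% of members were. Library medians were 0.39, 0.20 and 0.24 in event 2 and -0.03, -0.14 and 0.19 in control, so control replicate 3 lay close to event 2. The 200 most lowered in ear had a median of -0.09, with 73 above 0 and 24 below control with no overlap, no larger a share than the 12.9% of all members. Their library medians were -0.20, -0.07 and -0.07 in event 2 and 0.03, 0.09 and -0.12 in control, which overlap.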

How the data were processed

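RNA from ear inflorescence and ear, 3 replicates per group, was read on a HiSeq2000 in 50-base reads. Per the study's methods and the submitters' processing notes (CASAVA 1.8.2, Bowtie 0.12.8, DESeq), reads were matched to the maize B73 transcript set, release 5a, dropped above 10 matches and otherwise counted on every match, so related genes share reads. The deposited signal values are counts multiplied by a scale factor for each library by the authors. Library medians are therefore aligned, and strand is not used. Low values of the 18 libraries were whole reads in 433951 of 433951 cases (100%, tolerance 0.1 read). This gave 31051363 to 52655576 assigned reads in the 6 libraries compared. The precision of values near 0 is set by this depth, and intervals for single counts were not computed.

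Signal was tested as log2(value + 1), a scale that understates folds of low transcripts, with limma 3.58.1 in R 4.3.3 on all 76612 identifiers and 18 libraries. The model held 6 group means and moderated variances with a trend (prior df 6.855, residual df 12), two-sided. Transcripts were called at a raw p of at most 0.0001, and adjusted p is by Benjamini and Hochberg over all identifiers. An exact permutation test of 3 against 3 cannot go below p = 0.1. Replicates are biological, but the plants behind each are not given in the sources used here, so p-values measure the spread between these samples. edgeR 4.0.16 and DESeq2 1.42.0 on the recovered reads, another pseudocount (0.1), a level filter, quantile normalisation, fits on the groups compared alone, a replicate block and fits without each library were alternatives. Tools were tested on simulated data.

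Names came from RefSeq (Zm-B73-REFERENCE-NAM-5.0, names and neighbours only), with a match for 16012 members and a gene name for 2246. The members, classes and lists were chosen with earlier results of these data known, and class name patterns were corrected after values were seen. The text names the 15 higher and 15 lower transcripts with the smallest p among those whose groups do not overlap. It also names the 7 transcripts the study lists for both events. Per class up to 4 could be named, the 2 higher and 2 lower with the smallest p. In the heat-shock and chaperone classes any member could be named, and not all are. Called neighbours within 10 genes could be named as well. Genes named after their values were seen are marked. Among the HD-Zip II genes no name matched, and they are not analysed here. Figures were drawn with matplotlib 3.10.9.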

Additional observations from a re-analysis of the deposited data

Results flagged for a closer look

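The effect of event 2 on hsp22 (GRMZM2G007729) differed between the tissues, by 1.63 on the log2 scale (ear minus ear inflorescence, past the raw threshold in limma but with an adjusted p of 0.638), since it fell in ear inflorescence and lay close to control in ear.

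For 14 of the 15 higher transcripts named in the report, the test of event 2 against event 1 in ear inflorescence passed the threshold, with higher values in all 3 event 2 libraries. In all, 19 members passed, 18 of them higher. The differences, event 2 minus event 1 on the log2 scale, were 7.07 for GRMZM2G023764, 5.40 for GRMZM2G320731, 4.99 for GRMZM2G126684, 4.10 for GRMZM2G387589 and 3.64 for GRMZM2G483596. They were 3.54 for GRMZM2G148726, 3.12 for GRMZM2G078795, 3.05 for GRMZM2G151585, 2.74 for GRMZM2G005006, 2.64 for GRMZM2G179666 and 2.61 for AC199186.2. Among these 14 the smallest were 2.39 for GRMZM2G312539, 2.14 for GRMZM2G078114 and 1.81 for GRMZM2G028921. For transcripts at or near 0 in event 1 these fitted values depend on the added 1 and are no bound on the fold.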

How the results depend on the processing

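The count of members called between event 2 and control in ear inflorescence (18) was 15 with a pseudocount of 0.1, 20 with only the 39351 members fitted and 19 under quantile normalisation. It was 11 with only the 6 libraries compared (9 shared), 175 by edgeR and 46 by DESeq2 (18 shared with each), and 12 to 15 without 1 of the 6 libraries, or 27 without event 1 replicate 1, an alternative chosen after seeing the data. In ear (16) it was 2 with the groups alone, 73 by edgeR, 27 by DESeq2 and 11 to 16 without 1 library. Against event 1 (19) it was 2, 209, 37 and 13 to 24. For the difference between tissues (1) it was 3, 143, 9 and 0 to 2. Of the 30 transcripts named for the smallest p, 18 were called, 9 with the groups alone, 29 by edgeR, 29 by DESeq2 and 12 to 14 without 1 library.

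Replicate numbers were not taken to pair the samples. The deviations of same-numbered event 2 and control libraries correlated at -0.03, 0.13 and -0.21, and those of unlike-numbered ones at -0.24 to 0.23. Whether equal numbers share a plot is not given, and these correlations cannot decide it. A replicate block gave 20 calls in ear inflorescence (18 shared), 15 in ear, 18 against event 1 and 2 for the difference between tissues. Of single transcripts and settings, 1042 kept their direction and side of the threshold, 40 gained the call, 48 lost it and 4 changed sign, namely cdj2 (-0.023) and hsp70-4 (-0.012) under quantile normalisation, and hsp18a (-0.0026 to 0.33) and hsp18c (-0.013 to 0.35) over the fits without 1 library, both below 0 without event 2 replicate 2. Of 561 class medians under alternatives, 48 moved beyond the spread between replicates. The cause of these changes was not tested. Depth limits transcripts with a mean under 10, which were fitted but not described.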
